A study of Mus musculus with 36 samples.

Results

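Transcripts of the whole hippocampus were compared between 3 libraries from fear-conditioned young mice (73, 75 and 77) and 3 from young naive mice (79, 81 and 83), named here by the number in their titles. These 6 libraries, of 12 RNA libraries and 36 samples in the series, were chosen by their titles alone. The mice of both groups were C57BL/6J, the inbred laboratory strain, at 2.5 months of age. Conditioned mice spent 5 min in a training session with 3 foot shocks of 0.5 mA lasting 2 s each, and their brains were frozen 30 min after it. Naive mice are labelled as naive only, and the labels do not say whether they were handled or placed in the chamber. The same comparison was sequenced at 15.5 months (old mice, 3 conditioned and 3 naive libraries), and those libraries enter here through the shared estimate of spread and through the test of age. Whole tissue was used, so fewer cells of a type and less RNA per cell cannot be told apart. The labels do not say that each library came from a separate animal, and p-values therefore measure the spread between these samples.

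The 3 conditioned libraries held 13350561, 11859328 and 9851985 counts, and the 3 naive ones 9410843, 12832259 and 12020240. Of 24060 genes in each file, 14405 passed a filter on low counts and were tested with edgeR's quasi-likelihood test. Levels are given in CPM, counts scaled to a common library size with edgeR's TMM factors, and differences as log2 of conditioned over naive with a standard error (SE). Adjusted p-values follow Benjamini and Hochberg over all tested genes. Markers of the labelled tissue were read first. Prox1, a marker of dentate granule cells, had 123, 92.5 and 106 CPM in conditioned libraries and 107, 109 and 99.7 CPM in naive ones. Wfs1, a marker of CA1 pyramidal cells, had 105, 110 and 120 CPM in conditioned and 108, 113 and 95.4 CPM in naive libraries. All 12 granule cell, 10 CA1 and 11 CA3 markers listed were detected in each of the 6 libraries. The same held for the 9 tested markers of thalamus and habenula and 14 of ependyma, so detection alone cannot check the dissection. Library 81 was the highest naive library for 9 of the 9 thalamus and habenula markers, against 35.2% of all tested genes.

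Immediate early genes are genes that a cell can transcribe within minutes of a stimulus without first making new protein. In neurons, calcium entry during firing activates the transcription factors CREB and SRF at their promoters, and the first products include transcription factors (Fos, Egr and Nr4a families), brakes on the same signalling (Dusp phosphatases, Sik kinases) and proteins that act at synapses (Arc). In the hippocampus their transcripts are widely used as a trace of recent activity, including after contextual fear learning. CREB binds the cAMP response element, the palindrome TGACGTCA or the shorter TGACG.

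The bases just before the start site are shown for the early genes with the smallest p-values in the comparison that have a promoter entry, so that the letters of that element can be seen. They are 200 bases upstream of the start, read 5′ to 3′ on the strand of the gene, from RefSeq on GRCm38.p6. Fosb lies at chr7:19310046-19310245 on the minus strand, Dusp1 at chr17:26508473-26508672 on the minus strand, Btg2 at chr1:134079156-134079355 on the minus strand and Egr4 at chr6:85513590-85513789 on the minus strand. Fos lies at chr12:85473690-85473889 on the plus strand, Junb at chr8:84978749-84978948 on the minus strand and Tiparp at chr3:65528247-65528446 on the plus strand. Capitals mark TGACG or, read on the other strand, its reverse complement, and each TGACGTCA holds 2 overlapping TGACG matches.
Fosb: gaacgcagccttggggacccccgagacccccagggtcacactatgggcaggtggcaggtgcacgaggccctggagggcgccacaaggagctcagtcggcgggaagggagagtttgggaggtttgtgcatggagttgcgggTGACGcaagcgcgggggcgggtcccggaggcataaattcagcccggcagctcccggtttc
Dusp1: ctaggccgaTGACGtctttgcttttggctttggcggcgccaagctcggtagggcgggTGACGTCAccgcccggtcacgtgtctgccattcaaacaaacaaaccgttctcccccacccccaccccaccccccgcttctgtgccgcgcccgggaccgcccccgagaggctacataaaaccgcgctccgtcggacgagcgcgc
Btg2: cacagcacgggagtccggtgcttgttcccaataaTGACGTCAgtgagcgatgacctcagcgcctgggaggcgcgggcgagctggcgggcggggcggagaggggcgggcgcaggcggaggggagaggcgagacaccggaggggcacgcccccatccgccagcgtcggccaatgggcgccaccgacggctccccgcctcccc
Egr4: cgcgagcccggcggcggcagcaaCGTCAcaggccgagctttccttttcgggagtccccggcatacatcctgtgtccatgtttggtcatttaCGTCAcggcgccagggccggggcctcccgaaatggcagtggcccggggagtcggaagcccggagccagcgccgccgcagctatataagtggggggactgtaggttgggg
Fos: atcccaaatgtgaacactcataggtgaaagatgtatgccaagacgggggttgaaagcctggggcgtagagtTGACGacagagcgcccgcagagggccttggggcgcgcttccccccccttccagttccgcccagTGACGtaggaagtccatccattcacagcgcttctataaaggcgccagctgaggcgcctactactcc
Junb: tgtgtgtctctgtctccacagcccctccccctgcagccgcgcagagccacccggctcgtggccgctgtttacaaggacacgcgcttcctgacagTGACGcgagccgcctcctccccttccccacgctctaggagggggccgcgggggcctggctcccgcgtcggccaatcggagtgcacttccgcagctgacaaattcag
Tiparp: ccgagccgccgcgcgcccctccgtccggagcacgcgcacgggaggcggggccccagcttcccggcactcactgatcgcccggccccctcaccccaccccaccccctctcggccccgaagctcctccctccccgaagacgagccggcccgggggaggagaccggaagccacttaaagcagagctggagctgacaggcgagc

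Dusp1 and Btg2 each hold the full palindrome TGACGTCA, from base -143 to -136 and from -166 to -159 counted back from the start site. TGACG alone starts at base -60 in Fosb, at -129 and -66 in Fos, and at -106 in Junb, and lies on the other strand in Egr4. The printed window of Tiparp holds no match. Both strands of the 250 bases before the start were searched over the whole table, in which 17.8% of 32851 promoters held TGACG and 1.55% held TGACGTCA. Among tested genes with a promoter entry, 29.9% held TGACG. It was present in 15 of 19 inducible transcription factor promoters, or 78.9%, and in 11 of 24 promoters of the signalling brakes, or 45.8%. Vascular early response promoters held it in 7 of 9 (77.8%), synaptic and secreted effector promoters in 10 of 17 (58.8%). Glucocorticoid-responsive promoters held it in 8 of 18 (44.4%). The full palindrome TGACGTCA was present in 0 of the 19 and in 4 of the 24 (16.7%), against 3.01% of tested genes. Of the 15 genes with the smallest p among those higher in conditioned libraries, 13 had an entry and 7 held TGACG, and of the 15 among those lower, 9 had an entry and 2 held it. A match in these letters describes the sequence and was not measured as binding.

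Choroid plexus and nuclear-retained transcripts differed between libraries within both groups, and these differences stand beside the results that follow. Ttr, the transthyretin gene of the choroid plexus epithelium that secretes cerebrospinal fluid, had 524, 1961 and 24.2 CPM in conditioned libraries and 149, 2857 and 1126 CPM in naive ones. The groups overlapped, with libraries 77 and 79 low and libraries 75 and 81 high. The 20 listed choroid genes summed to between 255 and 3700 CPM in conditioned and between 506 and 4925 CPM in naive libraries, and in library 77 alone 2 of the 20 stood at 0 counts. Malat1, a long RNA kept in the nucleus, had 10179, 9883 and 12612 CPM in conditioned and 15660, 7352 and 12947 CPM in naive libraries. The highest and the lowest Malat1 values were thus both naive, in libraries 79 and 81. The mean log2 CPM of 8 nuclear-retained RNAs was 8.55 ± 0.19 in conditioned and 8.70 ± 0.49 in naive libraries (SD, n = 3 each; exact permutation p = 0.7, two-sided). That of the choroid list was 3.21 ± 1.97 in conditioned and 3.93 ± 1.499 in naive libraries (exact permutation p = 0.6), and Ttr and Malat1 themselves gave exact p of 0.6 and 0.9. After adjustment over these 4 comparisons each p was 0.9, and 0.1 is the smallest that 3 against 3 libraries allow. The sign of all 4 differences turned in at least 1 of the fits that left out a library.

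**Figure D1:**
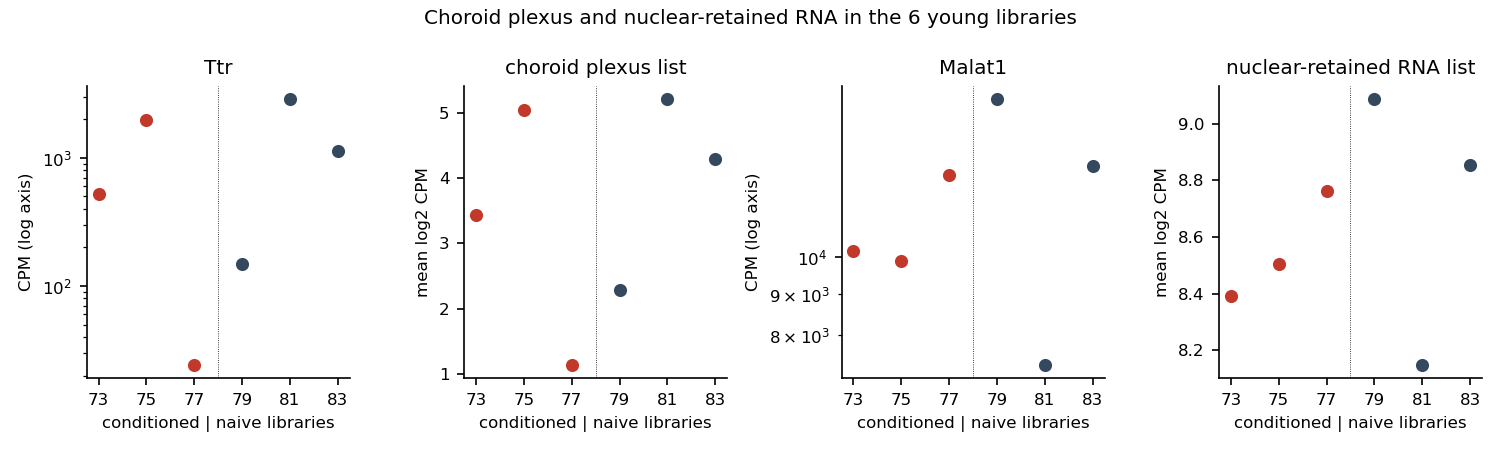
Ttr and Malat1 in CPM on log axes, and the mean log2 CPM of the choroid plexus and nuclear-retained lists, in the 3 conditioned libraries (red, left of the dotted line) and the 3 naive libraries (dark, right of it). Each point is 1 library, and conditioned and naive libraries overlap in all 4 panels.

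Training was followed by higher transcript levels of a small set of immediate early genes. Fosb, Dusp1, Btg2 and Sik1 rose past an edgeR adjusted p of 0.05, which is 0.0278% of the 14405 genes tested, and 0 genes passed downward (0%), where DESeq2 and limma each called 1. Fosb, a partner of Jun proteins in the AP-1 transcription factor, had 18.5, 12.7 and 15.9 CPM in conditioned libraries, against 7.63, 6.95 and 6.20 CPM in naive ones. Its fold was 2.28 (log2 1.19, SE 0.147, edgeR adjusted p = 0.00492). Every conditioned library stood above every naive one, and the naive values lay close together.

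Dusp1, a phosphatase that switches off MAP kinases, had 17.9, 17.0 and 17.5 CPM in conditioned libraries, against 9.75, 7.03 and 7.94 CPM in naive ones (2.14-fold, SE 0.139 on the log2 scale, edgeR adjusted p = 0.00492). The 3 conditioned values were nearly equal. Sik1, a kinase that is itself induced by cAMP and restrains the CREB coactivators, had 25.1, 20.1 and 24.2 CPM in conditioned and 12.6, 13.7 and 12.8 CPM in naive libraries (1.77-fold, SE 0.131, edgeR adjusted p = 0.0414). Btg2, an antiproliferative gene that promotes removal of the poly(A) tail of messenger RNA, had 25.3, 21.5 and 29.1 CPM in conditioned and 15.4, 15.6 and 13.6 CPM in naive libraries (1.70-fold, SE 0.117, edgeR adjusted p = 0.0358). In all 4 genes conditioned library 75 had the lowest value of its group, and the groups did not overlap.

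With 1 library fewer the log2 differences of these 4 genes kept their direction, between 1.05 and 1.32 for Fosb, 0.99 and 1.23 for Dusp1, 0.75 and 0.91 for Sik1, and 0.66 and 0.86 for Btg2 over the 6 young libraries left out in turn. The number of genes higher past the edgeR adjusted threshold was 0 without conditioned library 73 or naive library 83 (276 and 502 at an unadjusted p under 0.05), 2 (Fosb and Dusp1) without library 77 or 81, and 13 without library 79. Sik1 and Btg2 also lost their calls without old library 65, 67 or 69 and with upper-quartile factors, and Btg2 without old library 61. A fit of the 6 young libraries alone called 0, and there 441 genes in the higher direction and 443 in the lower one had an unadjusted p under 0.05.

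**Figure D2:**
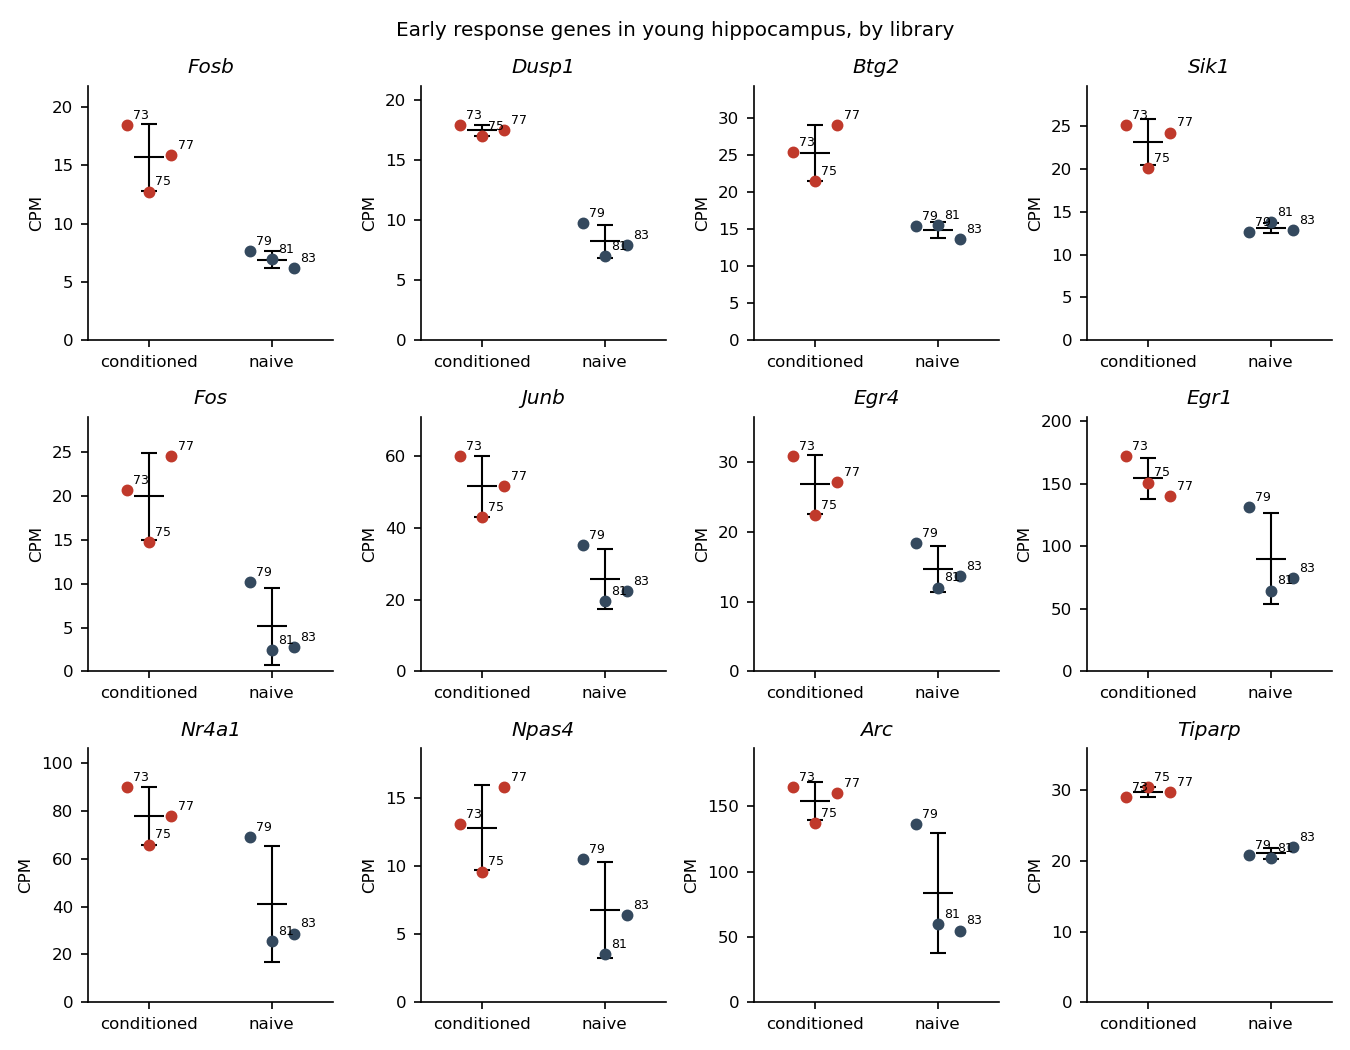
CPM of 12 early response genes in the 3 conditioned libraries (red, left) and the 3 naive libraries (dark, right), each point labelled with its library. Horizontal marks and bars are the mean and SD of 3 libraries. The 3 naive values of Fosb, Btg2, Sik1 and Tiparp lie close together, whereas naive library 79 stands above naive libraries 81 and 83 for Fos, Egr1, Nr4a1 and Arc.

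Over all genes the directions were close to even with the TMM scaling used. A log2 difference above 0 was found for 48.4% of tested genes, and the median was -0.01. Without adjustment, 497 genes (3.45%) reached p under 0.05 in the higher direction and 458 (3.18%) in the lower one. These counts depended on the scaling and on single libraries, with 361 higher and 618 lower under upper-quartile factors and 895 and 719 with a nuclear covariate. They were 276 and 238 without library 73, 334 and 571 without 75, 276 and 491 without 81, and 866 and 785 without 79. The groups were separated, with no overlap of their libraries, upward for 1028 genes (7.14%) and downward for 813 (5.64%). The 107 tested genes of the 5 early and glucocorticoid lists are set against this background. Of these, 92 had a log2 difference above 0, 38 were higher at an unadjusted p under 0.05 (35.5%) and 0 lower, and 33 were separated upward (30.8%). The count of 38 became 28 to 44 when each young library was left out in turn. The lists were drawn up with earlier results of these data known, so these counts are a description of the lists and no independent evidence.

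**Figure D3:**
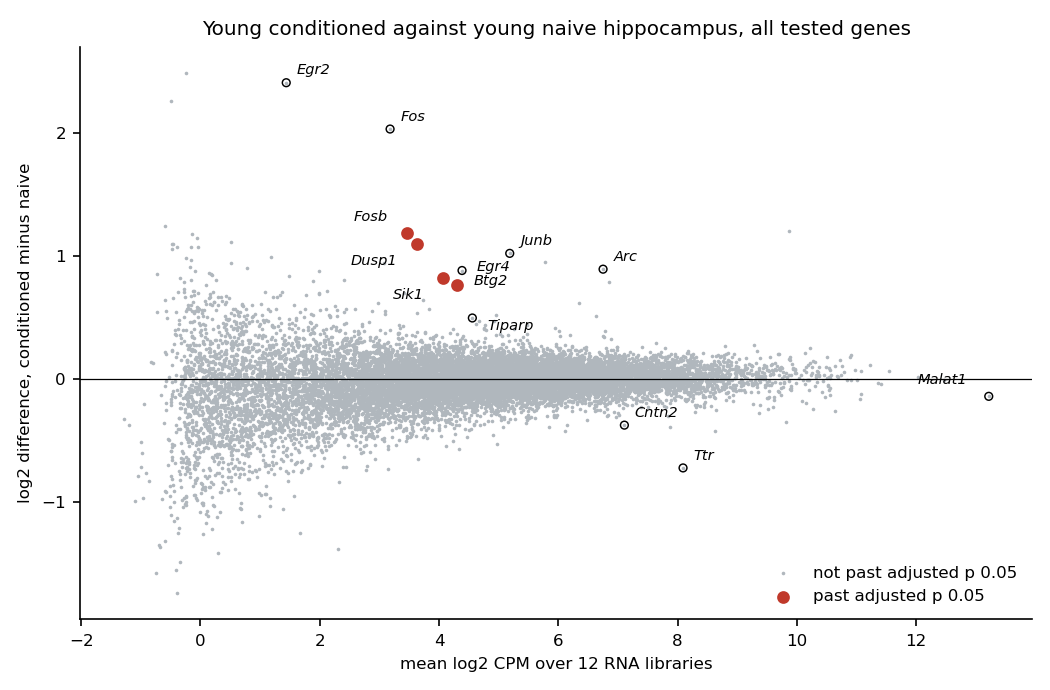
The log2 difference of conditioned minus naive against the mean log2 CPM over the 12 RNA libraries for the 14405 tested genes. Red points are the 4 genes past an edgeR adjusted p of 0.05, and open circles name other genes of the text. Fos and Egr2 have larger differences than the 4 called genes, at 2.03 and 2.41, without passing.

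Inducible transcription factors had the largest share of members with an unadjusted p under 0.05 among the lists, at 55.6%. Of 30 listed, 27 were tested, and Atf3, Fosl1 and Maff were too low, with at most 12 counts in a young library. Of the 27, 25 had a log2 difference above 0 (92.6%, against 48.4% of all genes), with a median of 0.33 against -0.01. At an unadjusted p under 0.05, 15 were higher (55.6%, against 3.45% of all genes). The groups were separated upward for 12 (44.4%, against 7.14% of all genes). Only Fosb passed the adjusted threshold. Fos, the AP-1 gene most used to mark active neurons, had 20.7, 14.7 and 24.6 CPM in conditioned and 10.2, 2.44 and 2.81 CPM in naive libraries. Its log2 difference of 2.03 (SE 0.364, edgeR adjusted p = 0.10035) did not pass, although the groups did not overlap. Fos was called with a choroid or a nuclear covariate, with no filter on low counts and by limma with quality weights. It was not among the genes called by DESeq2 or with upper-quartile or RLE factors. Naive library 79 lay between the other naive libraries and the conditioned ones.

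The other AP-1 genes were uneven. Junb had 60.2, 43.1 and 51.7 CPM in conditioned and 35.2, 19.6 and 22.4 CPM in naive libraries (log2 1.02, edgeR adjusted p = 0.117). Jun, the usual partner of Fos, was far more abundant and differed less, with 135, 110 and 123 CPM in conditioned and 121, 108 and 103 CPM in naive libraries (log2 0.15). The conditioned and naive ranges overlapped for Jun and not for Junb.

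The Egr zinc finger factors ranged widely in level and difference. Egr1 had 172, 151 and 140 CPM in conditioned and 131, 64.4 and 74.4 CPM in naive libraries (log2 0.79, edgeR adjusted p = 0.730). Egr4 had 30.8, 22.4 and 27.0 CPM in conditioned and 18.3, 11.99 and 13.6 CPM in naive libraries (log2 0.88, SE 0.155, edgeR adjusted p = 0.0991). Egr2 was the least abundant, with 8.29, 3.83 and 6.58 CPM in conditioned and 3.07, 0.229 and 0.579 CPM in naive libraries. Its log2 difference of 2.41 (SE 0.574) was the largest of the list, and ran from 1.86 without library 81 to 3.94 without library 79. In naive library 81 its level was close to the 0.234 CPM that 3 counts make there before scaling. Egr3 had 142, 118 and 121 CPM in conditioned and 116, 84.6 and 104 CPM in naive libraries (log2 0.33). None of the 4 had overlapping groups, and naive library 79 was the highest naive library for each.

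Nr4a1, an orphan nuclear receptor, and Npas4, a factor induced by calcium entry in neurons, had naive library 79 within the conditioned range. Nr4a1 had 90.0, 65.8 and 77.7 CPM in conditioned and 68.9, 25.6 and 28.7 CPM in naive libraries (log2 0.95, SE 0.254, edgeR adjusted p = 0.730). Npas4 had 13.0, 9.58 and 15.8 CPM in conditioned and 10.5, 3.51 and 6.37 CPM in naive libraries (log2 0.95, SE 0.274, edgeR adjusted p = 0.730). In both, library 79 lay above conditioned library 75, so the groups overlapped. Ier2, a small early response factor, had 5.66, 5.33 and 4.66 CPM in conditioned and 4.03, 2.60 and 3.14 CPM in naive libraries (log2 0.70). Bhlhe40, a repressor that also acts in the clock, had a log2 difference of 0.23 with overlapping groups.

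Naive library 79 had the highest value of the 3 naive libraries for 23 of the 27 transcription factors (85.2%), against 38.1% of all tested genes. For all 107 early and glucocorticoid genes it was highest for 64 (59.8%). Other lists shared this, with library 79 highest for 15 of 16 heat shock genes (93.8%), 14 of 19 clock genes (73.7%) and 7 of 8 nuclear-retained RNAs (87.5%). Among conditioned libraries, library 73 was highest for 18 of the 27 (66.7%), against 32.6% of all tested genes. Library 79 also had the highest Malat1 and nuclear-retained level of the naive libraries and the lowest choroid level, and the part of either in the early gene values was not tested. Left out of the fit, it raised the number of genes past the adjusted threshold to 13 higher and 3 lower. The 13 were Fosb, Dusp1 and Btg2 with Fos, Junb, Egr1, Egr2, Egr4, Nr4a1, Npas4, Arc, Dusp5 and Errfi1, whereas Sik1 did not pass there.

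**Figure D4:**
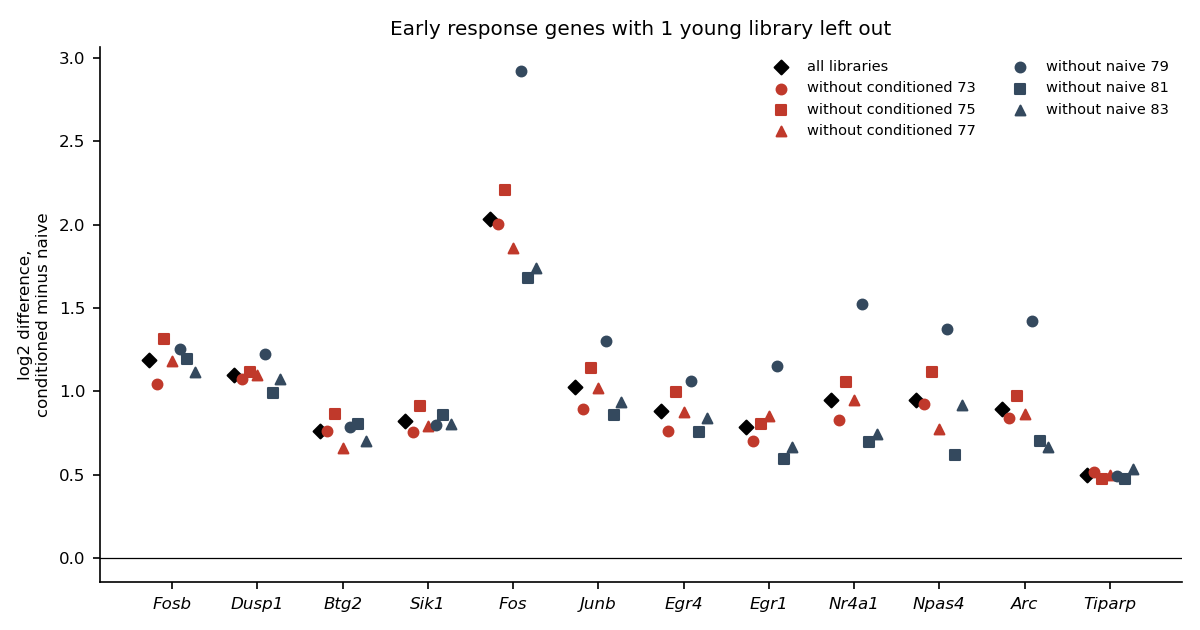
The log2 difference of 12 early response genes with all 12 RNA libraries (black diamonds) and with 1 young library left out, conditioned (red) or naive (dark). Without naive library 79 the differences of Fos, Egr1, Nr4a1, Npas4 and Arc are the highest of their columns, at 2.92, 1.15, 1.52, 1.37 and 1.42, while Tiparp stays between 0.47 and 0.53.

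Brakes and adaptors of early signalling were the list with most called genes. Of 31 listed, 30 were tested, of which 25 had a log2 difference above 0 (83.3%, against 48.4% of all genes), with a median of 0.19. At an unadjusted p under 0.05, 14 were higher (46.7%, against 3.45% of all genes) and 0 lower. The groups were separated upward for 10 (33.3%, against 7.14% of all genes). The adjusted threshold was passed by 3 (Dusp1, Btg2 and Sik1), or 10%, against 0.0278% of all genes. Dusp5, a nuclear phosphatase of ERK, had 14.9, 13.4 and 12.9 CPM in conditioned and 12.4, 6.64 and 6.87 CPM in naive libraries (log2 0.70). Errfi1, an inhibitor of EGF receptor signalling, had 57.9, 46.5 and 46.9 CPM in conditioned and 46.3, 32.0 and 34.2 CPM in naive libraries (log2 0.44). In both genes library 79 stood just under the lowest conditioned library and well above the other naive ones.

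Other brakes separated the groups with less spread among naive libraries. Nfkbia, the inhibitor that holds NF-kappaB in the cytoplasm, had 17.0, 17.6 and 15.4 CPM in conditioned and 12.9, 10.6 and 10.3 CPM in naive libraries (log2 0.57, edgeR adjusted p = 0.711). Rasd1, a small GTPase induced by glucocorticoids and by activity, had 33.9, 29.3 and 29.9 CPM in conditioned and 23.4, 21.5 and 23.7 CPM in naive libraries (log2 0.44, edgeR adjusted p = 0.456). Tob1, a relative of Btg2, had 42.2, 46.4 and 49.9 CPM in conditioned and 39.0, 35.7 and 38.5 CPM in naive libraries (log2 0.29). Neither library 79 nor any other naive library came near the conditioned range in Rasd1. Gadd45b, a gene of the stress and DNA demethylation response, had 11.8, 9.75 and 9.92 CPM in conditioned and 9.33, 5.65 and 6.78 CPM in naive libraries (log2 0.55), again with library 79 highest among the naive ones. Pim1, a kinase, had the lowest difference of the list at -0.51 (-0.84 without library 79 and -0.18 without library 81), with overlapping values between 0.742 and 2.60 CPM over both groups.

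Synaptic and secreted products of activity had small differences that were mostly upward. All 26 listed were tested. Of these, 22 had a log2 difference above 0 (84.6%, against 48.4% of all genes), with a median of 0.10. At an unadjusted p under 0.05, 3 were higher (11.5%, against 3.45% of all genes) and 0 lower. Upward separation was seen for 4 (15.4%, against 7.14% of all genes). Arc, a protein that removes AMPA receptors from synapses, had 165, 137 and 160 CPM in conditioned and 136, 59.9 and 55.0 CPM in naive libraries. Its log2 difference of 0.90 (SE 0.254, edgeR adjusted p = 0.730) ran from 0.66 to 1.42 as each young library was left out. Conditioned library 75 and naive library 79 were almost equal in Arc.

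Tiparp, an ADP-ribosyltransferase, varied little within groups. It had 29.0, 30.5 and 29.8 CPM in conditioned and 20.8, 20.4 and 22 CPM in naive libraries (log2 0.50, SE 0.0933, edgeR adjusted p = 0.124). The gap between the groups was wider than the range of either. DESeq2 and limma with quality weights called it. Bdnf, the neurotrophin, had 62.4, 55.7 and 55.5 CPM in conditioned and 54.5, 48.9 and 57.1 CPM in naive libraries (log2 0.12). Homer1, a scaffold of the postsynaptic density, had 225, 197 and 221 CPM in conditioned and 241, 166 and 191 CPM in naive libraries (log2 0.11). Both overlapped between groups, and gene-level counts do not separate the short activity-induced Homer1 form or the individual Bdnf promoters.

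Vascular early response genes are induced by flow and growth factors in vessel cells. Of 12 listed, 11 were tested, and 7 had a log2 difference above 0 (63.6%, against 48.4% of all genes), with a median of 0.16. At an unadjusted p under 0.05, 5 were higher (45.5%, against 3.45% of all genes) and 0 lower. Cyr61, a secreted matrix protein, had 4.37, 4.25 and 7.09 CPM in conditioned and 3.60, 2.29 and 2.65 CPM in naive libraries (log2 0.88). Klf2, an endothelial factor induced by flow, had 6.18, 7.08 and 6.48 CPM in conditioned and 5.30, 2.90 and 3.31 CPM in naive libraries (log2 0.80). Each of the 2 separated the groups, as did Klf4 (log2 0.69), Apold1 (log2 0.68) and Sgk1. Ctgf, a matrix protein related to Cyr61, differed the other way at -0.48 with overlapping groups. None of the 11 passed the adjusted threshold, and the 13 endothelial markers had a median of 0.01.

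Glucocorticoid-responsive genes are targets of the stress hormone corticosterone. Of 23 listed, 22 were tested, and 20 had a log2 difference above 0 with a median of 0.24. At an unadjusted p under 0.05, 7 were higher (31.8%, against 3.45% of all genes) and 0 lower, and 0 passed the edgeR adjusted threshold. Sgk1, a kinase of ion transport that stands on both lists, had 71.1, 80.9 and 66.2 CPM in conditioned and 53.7, 53.8 and 58.6 CPM in naive libraries (log2 0.39). Tsc22d3, the leucine zipper protein GILZ, had 51.4, 54.0 and 58.9 CPM in conditioned and 49.6, 46.9 and 41.0 CPM in naive libraries (log2 0.26). Both separated the groups. Nfkbia and Errfi1, given above among the brakes, also stand on this list, and the counts of the lists therefore share genes. Fkbp5, a chaperone of the glucocorticoid receptor, overlapped, with 71.9, 60.7 and 69.7 CPM in conditioned and 61.7, 57.7 and 66.2 CPM in naive libraries (log2 0.12). Per1, a clock gene that also answers to glucocorticoids and CREB, had 85.3, 75.1 and 82.6 CPM in conditioned and 77.9, 52.5 and 59.8 CPM in naive libraries (log2 0.36), with library 79 inside the conditioned range.

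**Figure D5:**
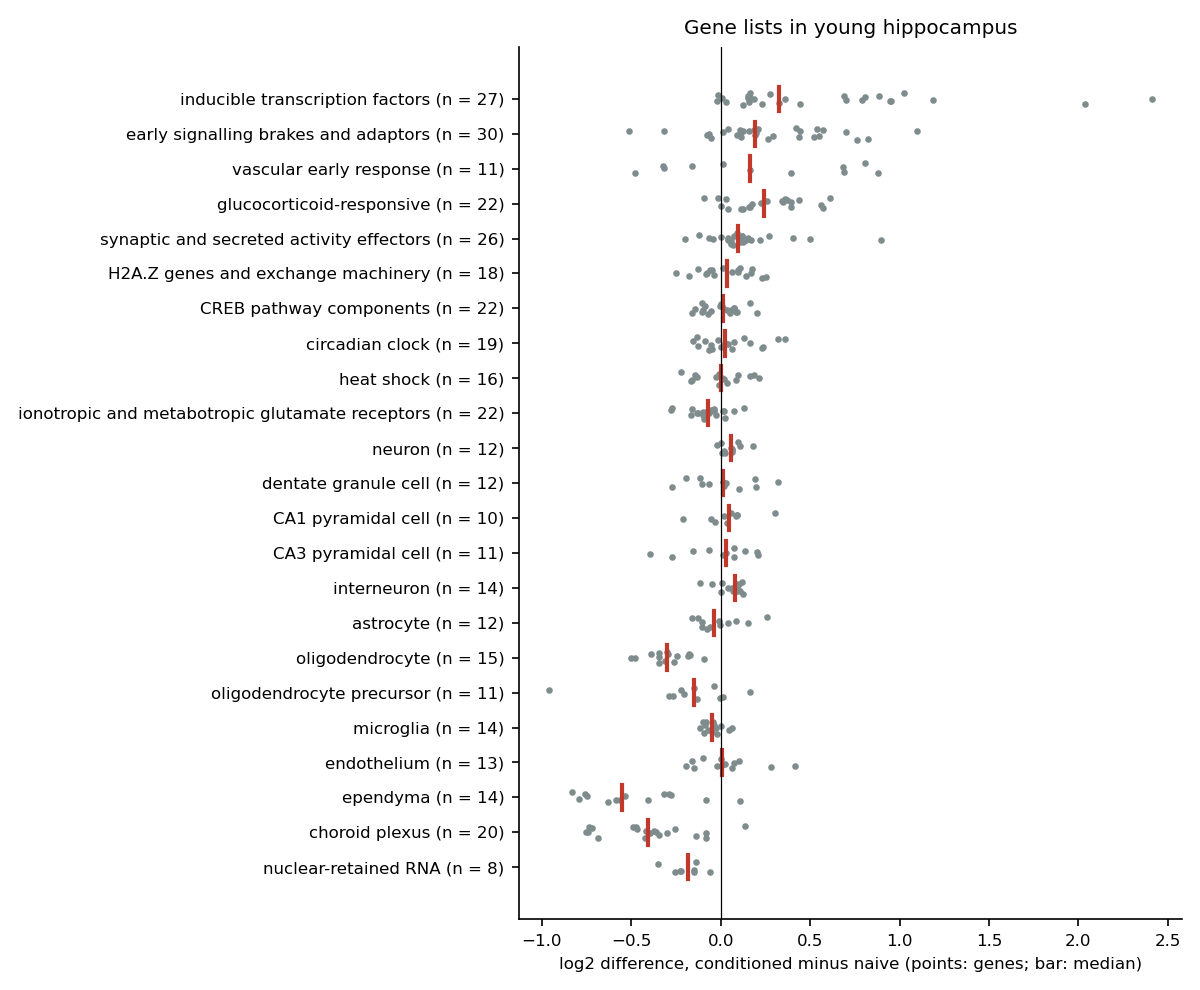
The log2 difference (conditioned minus naive) of each tested member of the lists shown, 1 point a gene, with the median of each list as a bar and the number of members beside its name. The transcription factor list has a median of 0.33 and the signalling brakes 0.19, whereas the oligodendrocyte, choroid plexus and ependyma lists have medians of -0.30, -0.41 and -0.55.

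Among genes lower in conditioned libraries, none passed in edgeR. Cntn2, an axonal adhesion protein of the region beside the node of Ranvier, had 118, 130 and 123 CPM in conditioned and 148, 170 and 162 CPM in naive libraries (log2 -0.37, edgeR adjusted p = 0.456). Cntn2 separated the groups. Nfasc, an adhesion protein of the node and the axon initial segment, had a log2 difference of -0.19, and the very large cytoskeletal linkers Dst and Macf1 had -0.24 and -0.23, each separated. Kcnt1, a sodium-activated potassium channel, had 29.1, 32.1 and 34.3 CPM in conditioned and 42.9, 37.6 and 44.0 CPM in naive libraries (log2 -0.38). Grip2, a scaffold of AMPA receptors, had 9.80, 9.83 and 9.72 CPM in conditioned and 12.8, 13.4 and 13.1 CPM in naive libraries (log2 -0.42), with little spread in either group. Others of the 15 genes with the smallest p in this direction were Sdk2, Dnah2, Plekhg3, Nlrp5-ps, Rgs22, Lzts2 and Nfkbie, between -0.36 and -1.38.

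Myelin genes lay lower in conditioned libraries as a list. Of 15 oligodendrocyte markers, 0 had a log2 difference above 0 (0%, against 48.4% of all genes), and the median was -0.30. At an unadjusted p under 0.05, 7 were lower (46.7%, against 3.18% of all genes), with 0 past the edgeR adjusted threshold. Mbp, myelin basic protein, had 677, 942 and 855 CPM in conditioned and 832, 1214 and 1097 CPM in naive libraries (log2 -0.35). Cnp, an enzyme of myelin, had 191, 254 and 216 CPM in conditioned and 210, 334 and 268 CPM in naive libraries (log2 -0.30). The ranges overlapped in both genes, with library 75 highest among conditioned libraries for 15 of the 15 markers and library 81 highest among naive ones for 10. The count of 7 became 0 without library 73, 81 or 83, 1 without 77, 13 without 75 and 12 without 79, and was 2 in a fit of the 6 young libraries alone. Libraries 75 and 81 were also the highest of their groups in choroid transcripts, and the part of either in these values was not tested.

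Ventricular cell types had the same sign. Of 15 ependymal genes, which make the motile cilia of the ventricle wall, 14 were tested, 1 had a log2 difference above 0, and the median was -0.55. The list summed to 31.9, 60.6 and 32.4 CPM in conditioned and 35.5, 84.1 and 59.4 CPM in naive libraries, so the groups overlapped. Spag17, a protein of the ciliary axoneme, had 1.51, 1.58 and 1.21 CPM in conditioned and 2.44, 2.29 and 2.81 CPM in naive libraries (log2 -0.79), and was the only 1 of the 14 lower at an unadjusted p under 0.05. Of the 20 choroid plexus genes 19 lay lower, with a median of -0.41 and 0 at an unadjusted p under 0.05. Without library 77, 14 of the 20 lay higher.

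Lists of the histone H2A.Z and of neuronal machinery had medians near that of all genes, -0.01, while some of their shares differed from the shares of all genes. H2afz, the gene of the histone variant whose binding the study also mapped, had 82.6, 81.2 and 79.9 CPM in conditioned and 70.3, 74.5 and 70.8 CPM in naive libraries. Its log2 difference of 0.18 (SE 0.0635, edgeR adjusted p = 0.730) separated the groups without passing. Anp32e, a chaperone that removes H2A.Z, had 94.9, 104 and 97.4 CPM in conditioned and 85.7, 91.5 and 86.5 CPM in naive libraries (log2 0.17). Trrap, a scaffold of the TIP60 complex that exchanges it, had 270, 269 and 299 CPM in conditioned and 302, 324 and 322 CPM in naive libraries (log2 -0.18). Of the 18 tested genes of H2A.Z and its exchange, 10 had a difference above 0 with a median of 0.04, and an unadjusted p under 0.05 was reached by 3 upward (16.7%, against 3.45% of all genes) and 2 downward (11.1%, against 3.18%). The 22 CREB pathway genes had a median of 0.01, the 19 clock genes 0.02 and the 16 heat shock genes 0.00. The 22 glutamate receptor genes had a median of -0.07, with 5 above 0 (22.7%, against 48.4% of all genes). Pan-neuronal markers had a median of 0.06 with 10 of 12 above 0 (83.3%), granule cell markers 0.01, CA1 markers 0.05 and CA3 markers 0.03.

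Some of the 15 genes with the smallest p in the higher direction stand on none of the lists. Zfp667, a zinc finger repressor, had 29.3, 28.7 and 28.4 CPM in conditioned and 24.1, 20.2 and 19.4 CPM in naive libraries (log2 0.45, edgeR adjusted p = 0.558). F3, tissue factor, which starts coagulation and in brain is made by astrocytes, had 31.8, 33.6 and 36.4 CPM in conditioned and 27.2, 26.2 and 25.97 CPM in naive libraries (log2 0.36). Dek, a chromatin protein, had 59.9, 57.5 and 57.0 CPM in conditioned and 49.0, 46.0 and 49.8 CPM in naive libraries (log2 0.27). Iffo2, an intermediate filament family member, differed by 0.35. All 4 separated the groups, and none passed the adjusted threshold.

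The early genes of young mice were set beside the same comparison at 15.5 months, with the difference between the ages tested as an interaction in the same fit. No gene differed in its response between ages past an edgeR adjusted p of 0.05 (0 of 14405, 0%), while DESeq2 picked out 1, Kcnt1. Before adjustment 1037 genes (7.2%) had p under 0.05 for this difference. Fosb had a log2 difference of 1.19 in young and 1.06 in old mice, and Dusp1 1.10 in young and 1.05 in old mice. The young effect minus the old one was 0.13 (SE 0.206, edgeR adjusted p = 0.922) for Fosb and 0.05 (SE 0.196, edgeR adjusted p = 0.971) for Dusp1. For Btg2 the effects were 0.76 in young and 0.49 in old mice, with a difference of 0.27 (SE 0.165, edgeR adjusted p = 0.743). For Fos they were 2.03 in young and 2.08 in old mice, with a difference of -0.05 (SE 0.527), an error wide enough to hold sizeable changes either way. Sgk1 had 0.39 in young and -0.33 in old mice, a difference of 0.72 (SE 0.254, edgeR adjusted p = 0.680). In old mice Sgk1 had 55.4, 59.8 and 66.1 CPM in conditioned and 58.1, 59.3 and 110 CPM in naive libraries. The groups overlapped there, and only old naive library 71 stood above the conditioned libraries.

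H2A.Z at the promoters of these genes was read from the authors' deposited table of 20213 peaks in young mice, made on other libraries. Its conditioned and naive groups are named there by letters, and the conditioned group was identified by exclusion. In the authors' deposited table, 11021 of the tested genes had a peak within 1 kb of a start site, 14.5% were lower in conditioned mice at an FDR under 0.05 and 0 (0%) higher. The strongest promoter peak of Fos, at chr12:85473573-85475096 (mm10), had a log2 level of 3.41 in conditioned and 6.90 in naive mice in the authors' deposited table, with an FDR of 1.95e-07. That of Fosb, at chr7:19309379-19310695, had 5.61 in conditioned and 6.98 in naive mice in the authors' deposited table (FDR 0.0218). That of Dusp1, at chr17:26507640-26509040, had 7.58 in conditioned and 7.20 in naive mice in the authors' deposited table (FDR 0.656). By the strongest peak of the 4 genes called in RNA, 1 (Fosb) was lower past the FDR threshold in the authors' deposited table. Btg2 (FDR 0.221) and Sik1 (FDR 0.279) did not pass by that peak, like Dusp1. Junb (FDR 0.764) and Arc (FDR 0.881) did not pass by theirs in the authors' deposited table either. A weaker Sik1 peak, at chr17:31856170-31856869, had -0.38 in conditioned and 5.24 in naive mice in the authors' deposited table (FDR 0.000607). This Sik1 peak was called in 0 conditioned and 2 naive libraries. A weaker Nr4a1 peak has the same conditioned level there, also with 0 conditioned libraries called. The value of -0.38 may therefore be a floor rather than a measured level. The weaker peak of Fosb passed too (FDR 0.0202), and that of Junb did not (FDR 0.150), in the authors' deposited table. Weaker peaks of Nr4a1 (FDR 1.17e-05) and Bdnf (FDR 1.14e-06) also passed in the authors' deposited table. Those of Egr1 (FDR 0.319), Egr2 (FDR 0.161) and Rasd1 (FDR 0.236), and another of Bdnf (FDR 0.242), did not pass there.

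Of the 26 transcription factors with a promoter peak in the authors' deposited table, 6 were lower at an FDR under 0.05 (23.1%), and of the 29 brakes 2 (6.9%), beside 14.5% of all. The median log2 difference in the authors' deposited table was -0.68 for the transcription factors, -0.62 for the brakes and -0.62 for all 11021 genes. Across these genes the Spearman correlation of the RNA difference with the H2A.Z difference of the authors' deposited table was 0.0133, over genes that share libraries and are not independent.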

How the data were processed

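RNA of the young hippocampus was measured by sequencing in 3 conditioned and 3 naive libraries, with 3 and 3 old ones. The authors deposited raw counts per gene for each library, without normalization. The submitters' processing notes name HTSeq 0.6.1p2 and edgeR 3.8.6, TopHat and Bowtie2 2.2.1, Trim Galore 0.4 with cutadapt, and DiffBind 1.12.2 with MACS2 2.0.10. The role of each tool, the gene annotation and whether counting used strand were not given in the sources used here. The authors' deposited H2A.Z table gives log2 levels, log2 fold changes, p-values and FDR per peak.

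Groups were taken from the titles. Counts of all 12 RNA libraries were filtered with filterByExpr, TMM-scaled and fitted with edgeR 4.0.16 (glmQLFit and glmQLFTest, R 4.3.3), 1 mean per group, with an adjusted p threshold of 0.05. The biological coefficient of variation was 0.0877. Alternatives were upper-quartile and RLE factors, other filters, the young libraries alone, choroid or nuclear covariates, each library left out, DESeq2 1.42.0 and limma 3.58.1 (voom with quality weights). List means used log2 CPM with a prior count of 2 and an exact permutation test, run in R. The Spearman correlation used scipy 1.17.1. The scripts were tested on simulated data.

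The members and lists were chosen with earlier results of these data known. Named genes were those past the threshold, the 15 with the smallest p in each direction at a mean log2 CPM of at least 1, up to 4 of each list, and a fixed set of early, H2A.Z, choroid and nuclear genes. Egr3, Ier2, Jun, Dusp5, Gadd45b, Tob1, Pim1, Ctgf, Prox1, Wfs1, Dnah10, Lars2 and Capn11 fall outside that rule and were chosen after their values were seen. Some genes that the rule names are not reported here. No 2 replicates agreed within counting noise: chi-square per degree of freedom was 4.36 to 15.9 over young pairs. At these depths 3 counts are 0.225 to 0.319 CPM, which covers counting error only.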

Additional observations from a re-analysis of the deposited data

Results flagged for a closer look

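For 4 genes named above or listed, every conditioned library moved 1 way in young mice and the opposite way in old mice relative to naive ones. Kcnt1, Grip2 and Dek were named for a small young p-value, and Grm4 for a small one within its list. Their young separation was thus selected from these same data. The share of all tested genes with this pattern was not counted. The difference of the effects was also tested as an interaction, and none passed in edgeR. Kcnt1 had log2 differences of -0.38 in young and 0.39 in old mice, a young minus old difference of -0.77 (edgeR adjusted p = 0.607), which DESeq2 called. In old mice Kcnt1 had 35.8, 36.3 and 34.3 CPM in conditioned and 23.8, 29.8 and 27.8 CPM in naive libraries. Grip2 had -0.42 in young and 0.21 in old mice, a difference of -0.63 (edgeR adjusted p = 0.680). Dek had 0.27 in young and -0.14 in old mice, a difference of 0.41 (edgeR adjusted p = 0.680). Grm4, a presynaptic glutamate receptor, had -0.28 in young and 0.24 in old mice, a difference of -0.52 (edgeR adjusted p = 0.680). In young mice Grm4 had 12.2, 13.0 and 13.1 CPM in conditioned and 13.8, 18.4 and 13.9 CPM in naive libraries, and without library 81 the young difference was -0.12. Among 14405 genes, 1037 had an interaction at an unadjusted p under 0.05 (7.2%).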

How the results depend on the processing

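The log2 differences of Fosb, Dusp1, Btg2 and Sik1 stayed above 0 in all settings run. The number of genes higher past the adjusted threshold was 4, and became 2 with upper-quartile factors, 8 with no filter on low counts, 7 with a choroid covariate, 12 with limma and quality weights and 0 with the 6 young libraries alone (441 at an unadjusted p under 0.05); it ran from 0 to 13 over libraries left out. The number lower was 0, and 1 by DESeq2 and by limma; it ran from 0 to 3 over libraries left out (3 without library 79, Dnah10 and Plekhg3 among them). The 12 higher by limma were the 4 with Fos, Junb, Egr4, Nr4a1, Arc, Dusp5, Tiparp and Zfp667. DESeq2 called Egr4 and Tiparp higher beside the 4. DESeq2 called 1 interaction, Kcnt1. Fitted differences changed sign for Malat1 (0.11) and Meg3 (0.015) with a nuclear covariate, a list mean that holds both genes and cannot test them. Over young libraries left out they ran from -0.39 to 0.10 for Malat1 and -0.55 to 0.013 for Meg3 (both above 0 without 79), -0.0063 to 0.27 for Homer1 and -2.33 to 0.39 for Ttr (signs turned without 81), -0.65 to 1.66 for Lars2 (without 73) and -0.25 to 3.06 for Capn11 (without 77). The causes were not tested. Differences of mean log2 CPM over libraries left out ran from -2.79 to 0.37 for Ttr, -0.40 to 0.15 for Malat1 (0.01 without library 83), -1.65 to 0.31 for the choroid list and -0.42 to 0.052 for the nuclear list. The median H2A.Z difference of the transcription factors in the authors' deposited table was -0.47 with start sites within 2 kb. The median of all genes at that distance was not computed. No paired analysis was possible because the numbers in the titles differ for every RNA library. Leaving out a library changes the number of genes tested and the samples in each arm. Depth limits low genes such as Egr2, at most 8.29 CPM in a young library (SE 0.574).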

Other observations

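A few large differences rested on 1 library. Lars2, a mitochondrial leucyl-tRNA synthetase, had 2913, 351 and 311 CPM in conditioned and 382, 414 and 758 CPM in naive libraries. Its log2 difference was 1.20 with all libraries and -0.65 without library 73. Capn11, a calpain protease, had 0.452, 0.167 and 6.38 CPM in conditioned and 0.424, 0.153 and 0.579 CPM in naive libraries, with a log2 difference of 2.49, the largest of all tested genes, and -0.25 without library 77. Meninges and fibroblast markers went against the choroid list, with 9 of 11 tested above 0 and a median of 0.25. Slc6a13, a transporter of GABA and taurine in meningeal cells, had 4.22, 2.33 and 5.47 CPM in conditioned and 2.97, 2.06 and 1.74 CPM in naive libraries (log2 0.84). The meningeal list summed to 277, 318 and 279 CPM in conditioned and 204, 324 and 236 CPM in naive libraries, so the groups overlapped.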
